A study of Mus musculus with 6 samples.

Results

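Cells receive activins, bone morphogenetic proteins (BMPs) and transforming growth factor beta (TGF-beta) through a small family of serine/threonine kinase receptors. A dimeric ligand brings type II receptors together with type I receptors, the type II kinase phosphorylates the type I receptor, and the type I receptor in turn phosphorylates SMAD transcription factors. Acvr1b, Acvr1c and Tgfbr1 signal mainly to Smad2 and Smad3, whereas Acvr1 and Bmpr1a signal mainly to Smad1, Smad5 and Smad9. In mouse fat, Acvr1c (also called ALK7) is known as a receptor largely restricted to mature adipocytes that restrains lipolysis, and Bmpr1a as a receptor used in forming brown fat.

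Described here are 10 genes of this family among the 37620 gene identifiers of the count files. They are the type I receptors Acvr1, Acvr1b, Acvr1c, Bmpr1a and Tgfbr1, the type II receptors Acvr2a, Acvr2b, Bmpr2 and Tgfbr2, and Bambi, a membrane protein that resembles a type I receptor but has no kinase. They were chosen by symbol, each matching 1 Ensembl identifier, and the symbols were drawn up with the KO and WT count differences of this same contrast already known, among them a lower value of Acvr1c. In GENCODE M21, Acvr1 (ENSMUSG00000026836), Acvr1c (ENSMUSG00000026834) and Acvr2a (ENSMUSG00000052155) lie on chromosome 2, Acvr2b (ENSMUSG00000061393) and Tgfbr2 (ENSMUSG00000032440) on 9, Acvr1b (ENSMUSG00000000532) on 15, Bmpr1a (ENSMUSG00000021796) on 14, Bmpr2 (ENSMUSG00000067336) on 1, Tgfbr1 (ENSMUSG00000007613) on 4 and Bambi (ENSMUSG00000024232) on 18. The differences of these 10 genes are given as a description, with adjusted p-values from a fit over all tested genes, and, since the contrast was known, support nothing about the family as a set.

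RNA was sequenced from mature brown fat cells, the lipid-laden cells that float after collagenase digestion of brown adipose tissue. The KO group holds 3 libraries labelled as PHOSPHO1 knockout and the WT group 3 libraries labelled wild type. All are on a C57BL/6 background at 6 weeks of age, and each library pools 3 mice. The labels do not say how the knockout allele was made or in which cells it acts. A p-value here measures the spread between these pools.

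Libraries held 10576800 to 13750632 counts in KO and 12132987 to 14239307 in WT. Phospho1, a phosphatase of phosphocholine and phosphoethanolamine and the targeted gene, had 18, 15 and 17 counts in KO 1 to 3 and 13, 5 and 5 counts in WT 1 to 3. Its log2 fold change was 1.53 (SE 0.46, edgeR adjusted p = 0.056). These counts are not lower in KO, so all directions below are those of the libraries labelled KO. Levels are given as CPM (counts relative to the library total, on the usual per-million scale), on library sizes scaled by the trimmed mean of M-values (TMM). The brown fat marker Ucp1 was abundant in each library. It averaged 4196 ± 588 CPM in the libraries labelled KO and 2664 ± 545 CPM in WT (SD, n = 3 each). The 8 genes listed as brown adipocyte markers summed to 22280 to 30800 CPM in KO and 19050 to 27140 CPM in WT. Fabp4 was the largest part of each sum, at 12170 to 19700 CPM in KO and 12160 to 17490 CPM in WT. Elovl3, also on this list, was scarce, at 2.76 to 4.68 CPM in KO and 1.47 to 5.92 CPM in WT. The 5 skeletal muscle markers summed to 26.3 to 77.5 CPM in KO and 25.9 to 726.5 CPM in WT, the highest in WT 3. Macrophage markers summed to 233.6 to 507.8 CPM in KO and 111.2 to 211.5 CPM in WT, with no overlap between groups, and 1 of 7, Lyz2, was called higher by edgeR. Without Lyz2 the macrophage sums overlapped, at 36.5 to 67.1 CPM in KO and 43.0 to 50.8 CPM in WT. Of the 7 macrophage markers, 5 were above 0 on the log2 scale and 2 below. The 2 below were Mrc1 and Csf1r, at -0.92 and -0.74 (edgeR adjusted p = 0.052 and 0.432). DESeq2 called Mrc1 lower (adjusted p = 0.038). Cd68, Adgre1, C1qb and C1qa were at 0.715, 0.518, 0.305 and 0.259 (edgeR adjusted p = 0.155, 0.377, 0.478 and 0.631). The 5 erythroid markers summed to 1210 to 3505 CPM in KO and 366.4 to 1378 CPM in WT. All 5 were higher in KO at an unadjusted p under 0.05, 2 of them past the edgeR threshold (Hba-a1 at 1.85 and Alas2 at 1.42, adjusted p = 0.023 and 0.041), 5 in DESeq2 and 1 in limma-voom. Collecting the floating layer is meant to leave such other cells behind, yet their RNA was counted in each library. The part of these marker differences in the receptor results was not tested. The mitochondrial genome took 39.1% to 56.5% of counts in KO and 39.3% to 54.3% in WT, and with its genes removed Acvr1c was at -1.70, Acvr2a at -1.33, Bmpr2 at -2.30 and Bambi at 0.92 on the log2 scale. In RNA from such bulk preparations, fewer cells of a type and less RNA per cell cannot be told apart.

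In the libraries labelled KO, Acvr1c, Acvr2a and Bmpr2 were lower past the threshold of an adjusted p of 0.05, Bambi was higher just short of it, and Tgfbr2 and Acvr1 stood near their WT level. Of the 10 receptors, 9 passed the filter on low counts and Acvr2b did not. Of these 9, 3 were called lower and 0 higher by edgeR's quasi-likelihood test, and 6 had an unadjusted p under 0.05. Of all 12068 tested genes, edgeR called 7.52% lower and 1.63% higher, 9.16% in either direction, and 3718 had an unadjusted p under 0.05. DESeq2 called 3 receptors lower and 1 higher, beside 11.5% and 4.2% of its genes. Limma-voom called 2 receptors lower and 0 higher, beside 5.13% and 0.936%. KO and WT values did not overlap for 5 of the 9 receptors, 4 of them lower in KO, and for 35.4% of all tested genes, with 19.6% lower in KO. Since the contrast was known when the genes were chosen, nothing is read from these counts. The median log2 fold change of the 9 was -0.68, and that of all tested genes 0.03.

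**Figure D1:**
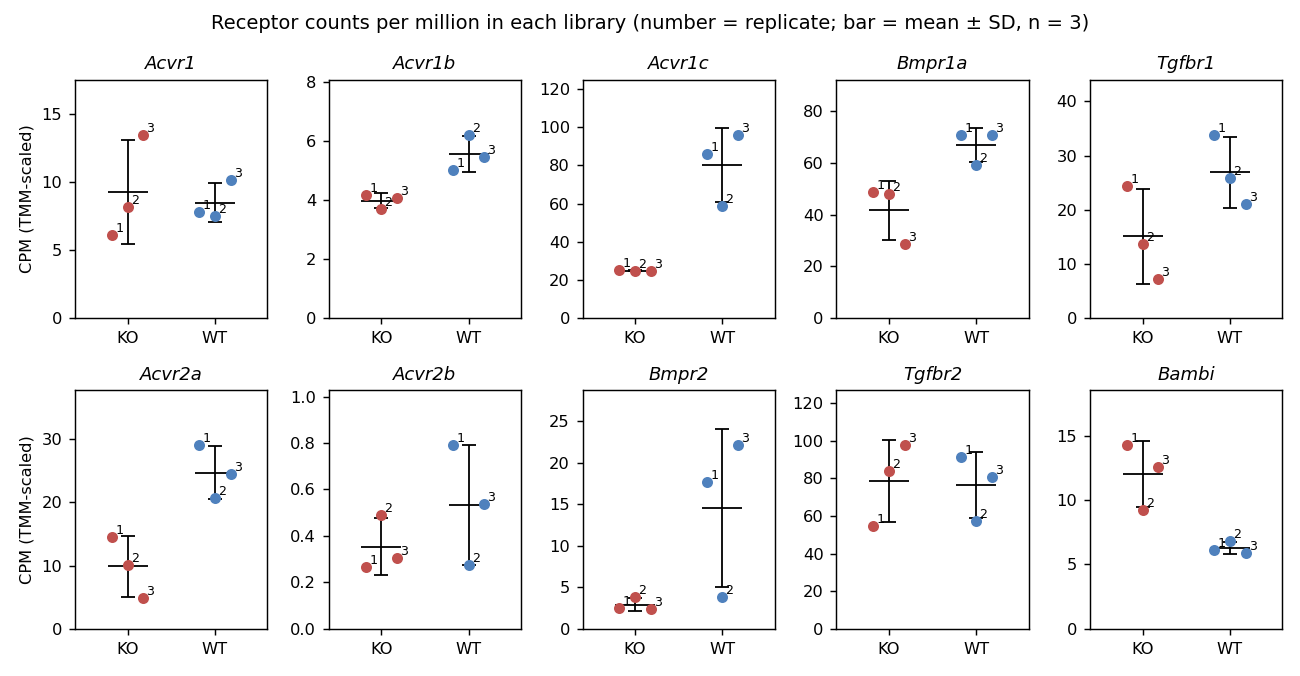
TMM-scaled CPM of each of the 10 receptor genes, with KO on the left and WT on the right of each panel; points are libraries marked by replicate number, and bars are the mean and SD of 3 libraries. Acvr1c sits near 25 CPM in each KO library and from 58.6 to 96.0 CPM in WT, while WT 2 lies beside the KO libraries for Bmpr2.

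Among the type I receptors of the Smad2 and Smad3 branch, Acvr1c showed the clearest separation. Its values were 25.4, 24.9 and 24.5 CPM in KO 1 to 3, against 86.2, 58.6 and 96.0 CPM in WT 1 to 3. All KO libraries lay close together and below each WT library, with WT 2 the lowest of its group. The log2 fold change was -1.69 (SE 0.25), or 0.311 of the WT level (edgeR adjusted p = 0.016). The call was lost without WT 1 (-1.64, edgeR adjusted p = 0.122) and without KO 3 (-1.69, edgeR adjusted p = 0.072). Calls over all tested genes were also nearly all lost in these fits. Without WT 1, 0 genes were lower and 0 higher, and without KO 3, 0 and 2. Acvr1c is the receptor for activin B and growth differentiation factor 3 in fat. The gene for the activin B subunit, Inhbb, averaged 4.64 ± 0.95 CPM in KO and 4.55 ± 1.35 CPM in WT (SD, n = 3 each), and Gdf3 had 0, 0 and 1 counts in KO 1 to 3 and 1, 0 and 0 in WT 1 to 3.

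Tgfbr1, the type I receptor for TGF-beta, had 24.4, 13.7 and 7.15 CPM in KO 1 to 3 and 33.8, 25.8 and 21.0 CPM in WT 1 to 3. KO 1 lay inside the WT range and KO 3 was the lowest library. At -0.83 on the log2 scale (SE 0.38) it missed the threshold (edgeR adjusted p = 0.162), whereas without KO 1 it was at -1.36 and passed (edgeR adjusted p = 0.022). Acvr1b, the type I receptor most used by activin A, had 4.16, 3.69 and 4.08 CPM in KO 1 to 3 and 5.02, 6.21 and 5.47 CPM in WT 1 to 3. The groups did not overlap, but the difference did not pass (log2 fold change -0.48, SE 0.28, edgeR adjusted p = 0.260).

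Of the BMP type I receptors, Bmpr1a had 48.7, 47.9 and 28.6 CPM in KO 1 to 3 and 70.8, 59.2 and 70.7 CPM in WT 1 to 3. Each KO library was below each WT library, and KO 3 stood lowest. It was at -0.68 on the log2 scale (SE 0.26), short of the threshold (edgeR adjusted p = 0.104). Acvr1 had 6.10, 8.20 and 13.5 CPM in KO 1 to 3 and 7.84, 7.51 and 10.1 CPM in WT 1 to 3. Here KO 3 was the highest library and the groups overlapped (log2 fold change 0.12, SE 0.32, edgeR adjusted p = 0.812). KO 3 was thus the lowest of all libraries for Tgfbr1 and Bmpr1a and the highest for Acvr1.

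Among the type II receptors, Acvr2a, which binds activins and some BMPs, had 14.5, 10.2 and 4.90 CPM in KO 1 to 3, against 29.0, 20.6 and 24.4 CPM in WT 1 to 3. The groups did not overlap, although KO 1 and KO 3 lay further apart than KO 1 and WT 2, the closest pair across groups. The log2 fold change was -1.32 (SE 0.35, edgeR adjusted p = 0.042), and it moved between -1.70 and -1.02 when single libraries were left out. The call was lost without WT 1, WT 3, KO 2 or KO 3 (edgeR adjusted p = 0.192, 0.071, 0.085 and 0.109). Fewer of all tested genes were called in each of these fits than with all 6 libraries. Of the merged exon bases of Acvr2a, 7.84% also lie in exons of Orc4 on the opposite strand. The like share is 4.57% for Bmpr1a (with Gm17110) and 1.81% for Acvr1c (with Gm13544). No source used here gives the strand setting of the counting.

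Bmpr2, the type II receptor for BMPs, had the lowest log2 fold change of the 9 and the fewest counts of the 3 that passed. It had 28, 47 and 24 counts in KO 1 to 3 and 314, 56 and 246 counts in WT 1 to 3, or 2.48, 3.86 and 2.45 CPM and 17.7, 3.82 and 22.1 CPM. WT 2 lay inside the KO range, and WT 1 and WT 3 were far above all others. The 95% exact Poisson intervals, which cover counting error only, were 34.5 to 62.5 for the 47 counts of KO 2 and 42.3 to 72.7 for the 56 counts of WT 2. The log2 fold change was -2.30 (SE 0.54, edgeR adjusted p = 0.029). The call was lost on leaving out any 1 library other than WT 2: without WT 1, WT 3, KO 1, KO 2 and KO 3 the edgeR adjusted p was 0.154, 0.066, 0.126, 0.061 and 0.131. Of these fits, that without KO 1 still called 994 of all tested genes lower and 298 higher, and the others called fewer than with no library left out. The Bmpr2 call changed in further settings. It was also lost in limma-voom (adjusted p = 0.082) and with no filter on low counts (edgeR adjusted p = 0.055).

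Tgfbr2, the type II receptor for TGF-beta, had 54.5, 83.8 and 97.4 CPM in KO 1 to 3 and 91.5, 57.1 and 80.9 CPM in WT 1 to 3. The groups covered nearly the same range (log2 fold change 0.04, SE 0.27, edgeR adjusted p = 0.936). With total counts in place of TMM scaling, the log2 fold changes of Tgfbr2 and Acvr1 were -0.27 and -0.17. Acvr2b, a further activin receptor, had 3, 6 and 3 counts in KO 1 to 3 and 14, 4 and 6 counts in WT 1 to 3. The 95% exact Poisson intervals for a count of 3 and for a count of 14 were 0.6 to 8.8 and 7.7 to 23.5, so a difference in Acvr2b was hard to detect at this depth.

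Bambi, which dampens signalling by taking the place of a type I receptor, stood above its WT level in the libraries labelled KO. It had 14.2, 9.27 and 12.6 CPM in KO 1 to 3 and 6.09, 6.83 and 5.92 CPM in WT 1 to 3. All KO libraries were above all WT libraries, and the WT libraries lay within 1 CPM of each other. The log2 fold change of 0.94 (SE 0.27) missed the threshold (edgeR adjusted p = 0.051). It passed in DESeq2 (adjusted p = 0.029), with a filter of 1 CPM in 3 libraries (edgeR adjusted p = 0.049) and without WT 2 (edgeR adjusted p = 0.050, just under the threshold).

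Levels of different genes were compared per kilobase of merged exons. In the libraries labelled KO the order was Tgfbr2 (9.60 ± 2.68 CPM per kb), Bmpr1a (6.57 ± 1.79), Acvr1c (2.68 ± 0.05), Bambi (2.37 ± 0.50), Tgfbr1 (2.31 ± 1.33), Acvr1 (1.92 ± 0.79), Acvr2a (1.73 ± 0.85), Acvr1b (0.900 ± 0.057), Bmpr2 (0.163 ± 0.045) and Acvr2b (0.090 ± 0.031). In WT it was Bmpr1a (10.5 ± 1.1 CPM per kb), Tgfbr2 (9.34 ± 2.16), Acvr1c (8.64 ± 2.09), Acvr2a (4.34 ± 0.74), Tgfbr1 (4.11 ± 0.99), Acvr1 (1.76 ± 0.30), Acvr1b (1.26 ± 0.14), Bambi (1.24 ± 0.09), Bmpr2 (0.808 ± 0.530) and Acvr2b (0.136 ± 0.066; SD, n = 3 throughout). Neighbours whose libraries did not overlap were, in KO, Bmpr1a and Acvr1c, Acvr1b and Bmpr2, and Bmpr2 and Acvr2b. In WT they were Acvr1c and Acvr2a, Tgfbr1 and Acvr1, Acvr1 and Acvr1b, and Bmpr2 and Acvr2b. All other neighbours overlapped and are not ordered by these data. Acvr1c stood below Bmpr1a in each of the 6 libraries on this scale. The order depends on the length used: per kilobase of the median transcript, Acvr1c came first and Bmpr1a second in WT with Tgfbr2 at place 4, and Bmpr1a came first and Acvr1c second in KO with Tgfbr2 at place 3.

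**Figure D2:**
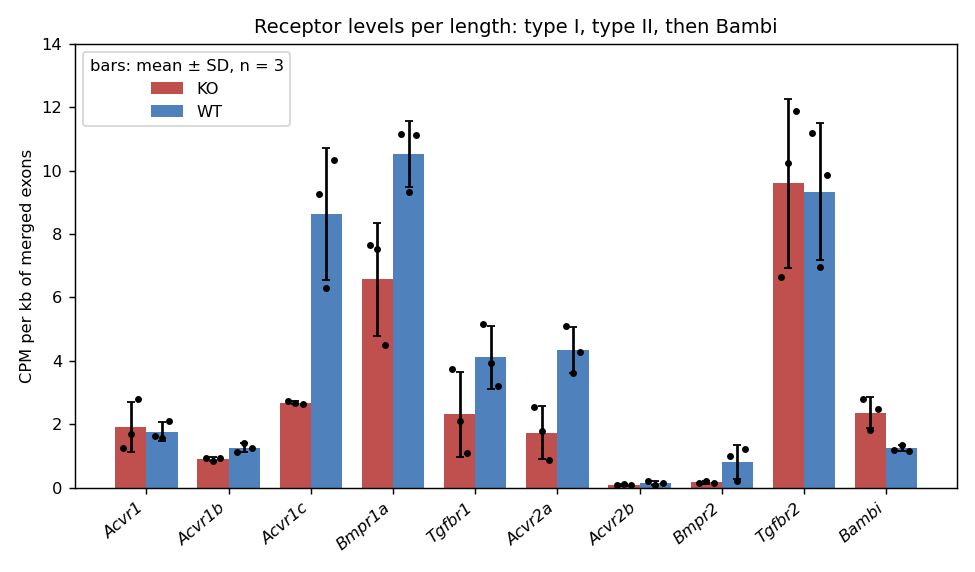
Levels of the 10 receptor genes in CPM per kilobase of merged exons; bars are means of 3 libraries with SD, KO left of WT, and black points are single libraries. Tgfbr2 is at 9.60 in KO and 9.34 in WT, whereas Acvr1c is at 2.68 in KO and 8.64 in WT.

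Within each library, Acvr1c made up 16.7% to 22.1% of the summed type I CPM per kilobase in KO and 28.0% to 36.9% in WT, with no overlap. On merged exon length, Bmpr1a took the highest share of the type I sum in all 6 libraries, with 37.7% to 50.8% in KO and 39.3% to 41.4% in WT. Tgfbr2 made up 70.7%, 82.8% and 91.7% of the type II sum in KO 1 to 3, against 64.0%, 64.1% and 63.6% in WT 1 to 3. Acvr2a was the second type II receptor in each library, with 27.1%, 14.5% and 6.64% in KO and 29.2%, 33.3% and 27.6% in WT. Such shares describe proportions within a library and not a change of any 1 receptor. Over the 6 libraries, which share their groups and length trend, Pearson's r of log2 CPM ran from 0.98 between Bmpr1a and Acvr2a to -0.92 between Bambi and Acvr1c.

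Transcript length moved with these differences. In the libraries labelled KO, tested genes whose longest annotated transcript has 1500 bases or fewer had a median log2 fold change of 0.56, and those over 9000 bases a median of -0.79. Of the genes over 9000 bases, 25.5% were called lower, against 0.295% of those of 1500 bases or fewer. The receptors have long transcripts, with a median of 5756 bases for the 9 tested and 3273 for all tested genes. Acvr1c (9162 bases), Acvr2a (5686) and Bmpr2 (12899) were below the median of their length range, which was -0.79, -0.47 and -0.79. Bmpr1a (5956 bases) and Tgfbr1 (5756) were closer to theirs, at -0.68 and -0.83 beside -0.47. Acvr1b (4418 bases) was below its range's median of -0.10, at -0.48, and Acvr1 (3293 bases) was above the same median, at 0.12. Tgfbr2 (8092 bases) was above its range's median of -0.74, and Bambi (5074 bases) above its range's median of -0.47. The slope of a library's log2 values on log2 length, relative to the mean library, was -0.238, -0.093 and -0.249 in KO 1 to 3. It was 0.306, -0.025 and 0.300 in WT 1 to 3, so of the WT libraries WT 2 lay nearest to KO on this slope.

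**Figure D3:**
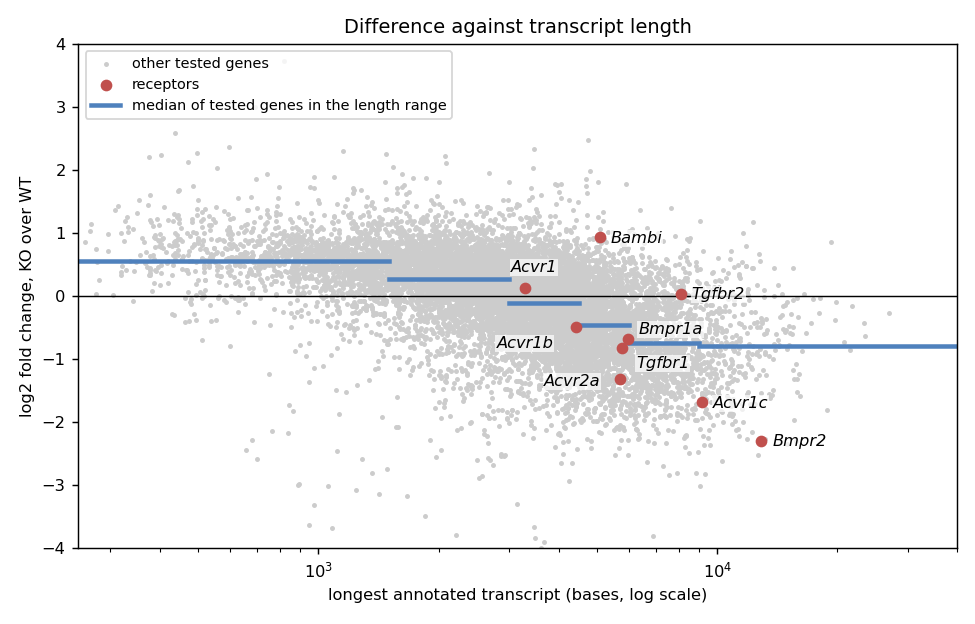
Log2 fold change of KO over WT against the longest annotated transcript of each tested gene on a log axis; grey points are tested genes (5 lie beyond the plotted limit of 4), blue bars are the median in each length range, and red points are the 9 tested receptors. Bmpr2, Acvr1c, Acvr2a, Tgfbr1, Bmpr1a and Acvr1b lie below the bar of their range, and Tgfbr2, Bambi and Acvr1 above it.

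With per-library offsets for length and GC content, none of the 3 receptors called lower passed when the longest transcript set the length. Acvr1c was then at -0.57, Acvr2a at -0.50 and Bmpr2 at -1.12 (edgeR adjusted p = 0.124, 0.276 and 0.172). In that edgeR fit 0 of the 9 receptors passed in either direction, beside 0% of all tested genes lower and 0.00829% higher, with 4 receptors and 2786 genes at an unadjusted p under 0.05. The median annotated transcript of Acvr1c has 1497 bases. With that transcript as each gene's length, Acvr1c was at -1.18 and Bambi at 1.79, and both passed (edgeR adjusted p = 0.049 for each), while 1.18% of all tested genes were lower and 0.679% higher. Acvr2a and Bmpr2 were at -0.47 and -1.22 there (edgeR adjusted p = 0.287 and 0.124). Bambi was at 1.53 with the longest transcript (edgeR adjusted p = 0.062), so it stood further from 0 with the offsets than without. Bmpr1a changed sign with the longest transcript, to 0.13, and Tgfbr2 was at 0.64 (edgeR adjusted p = 0.098).

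**Figure D4:**
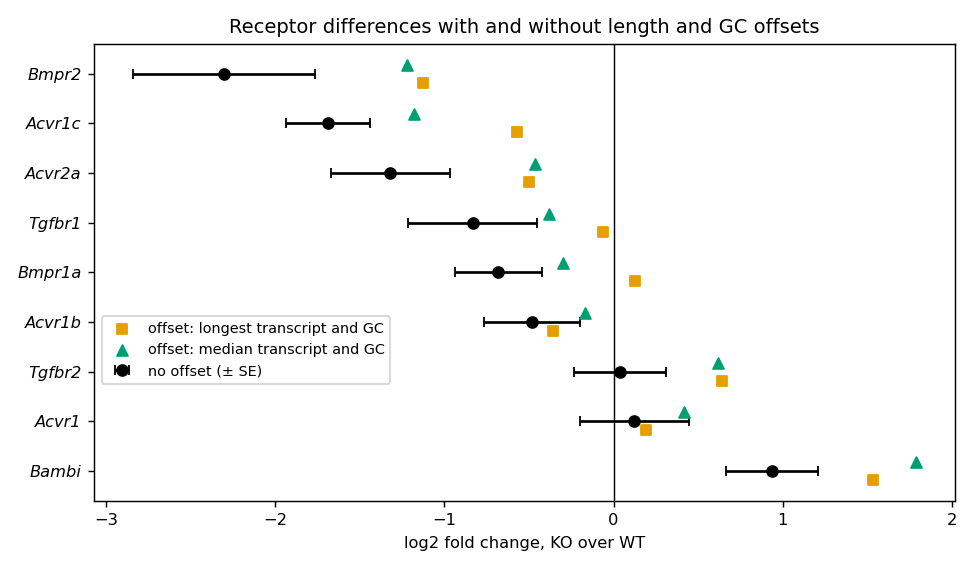
Log2 fold change of KO over WT for the 9 tested receptors; black points with bars are the fit without offsets and its SE, orange squares the fit with offsets on the longest transcript and GC content, and green triangles that on the median transcript. Both offsets bring Bmpr2, Acvr1c and Acvr2a closer to 0 and move Bambi from 0.94 to 1.53 and 1.79.

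The proteins differ in the ways the family is known for. In the longest GENCODE transcript, the 5 type I receptors encode 493 to 532 residues, Acvr2a and Acvr2b 513 and 512, and Tgfbr2 592. Bmpr2 encodes 1038 residues, the longest of the family because of its tail behind the kinase, and Bambi 260, since it has no kinase. The coding part is 3114 of 12899 bases in Bmpr2, 1479 of 9162 in Acvr1c and 780 of 5074 in Bambi.

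The bases before the annotated start are shown for the receptors called lower, as the stretch next to which their transcription begins (RefSeq starts, GRCm38.p6; the counts were made on mm9). Each was trimmed to end before any annotated exon of its gene, and the Bmpr2 window is not shown because it lies wholly inside such an exon. Capitals mark CAGAC, the core bound by SMAD proteins, or its reverse complement GTCTG. A second motif, TATAAA, was searched in the same way. Both were searched on both strands, and no matches overlapped.
Acvr1c, chr2:58357896-58358008, minus strand: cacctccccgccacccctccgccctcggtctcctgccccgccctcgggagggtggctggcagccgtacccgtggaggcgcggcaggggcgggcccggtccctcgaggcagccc
Acvr2a, chr2:48813859-48814108, plus strand: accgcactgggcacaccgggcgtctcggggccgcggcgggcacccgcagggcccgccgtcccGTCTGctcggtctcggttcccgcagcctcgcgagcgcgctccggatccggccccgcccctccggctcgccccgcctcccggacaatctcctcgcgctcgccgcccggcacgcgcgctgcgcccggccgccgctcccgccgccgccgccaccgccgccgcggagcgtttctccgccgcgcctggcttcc

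The Acvr1c stretch of 113 bases held 0 of either motif and 12 CG pairs, against a median of 2 CG pairs in the same window of 32851 RefSeq promoters. CAGAC on either strand was in 22.3% of those windows and TATAAA in 5.75%. The Acvr2a stretch of 250 bases held 1 CAGAC match and 49 CG pairs, where the median promoter held 6 and 42.2% of promoters held CAGAC and 12.4% TATAAA. Both stretches are rich in CG pairs. Acvr1c has 2 RefSeq starts, and gene-level counts do not tell them apart.

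The rest of the pathway was described over 114 further genes in 7 groups by role, of which 77 passed the filter on low counts. Of these, 9 were lower and 3 higher in the libraries labelled KO (edgeR quasi-likelihood test), beside 7.52% and 1.63% of all tested genes. Their median log2 fold change was -0.03, against 0.03 for all tested genes. The counts depended on single libraries: 0 of either direction passed in edgeR without WT 1 or without KO 3, where 17 and 19 of the genes had an unadjusted p under 0.05. Without WT 3, 5 were lower and 0 higher, and without KO 2, 4 and 0. With offsets on the longest transcript 0 passed in either direction (edgeR, 23 at an unadjusted p under 0.05). Calls over all tested genes fell in these fits too. Without WT 1, 0 of 12279 genes were lower and 0 higher, and without KO 3, 0 of 12445 were lower and 2 higher. Without WT 3, 366 genes were lower and 31 higher, and without KO 2, 258 and 47. With the offsets 0 genes were lower and 1 higher.

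**Figure D5:**
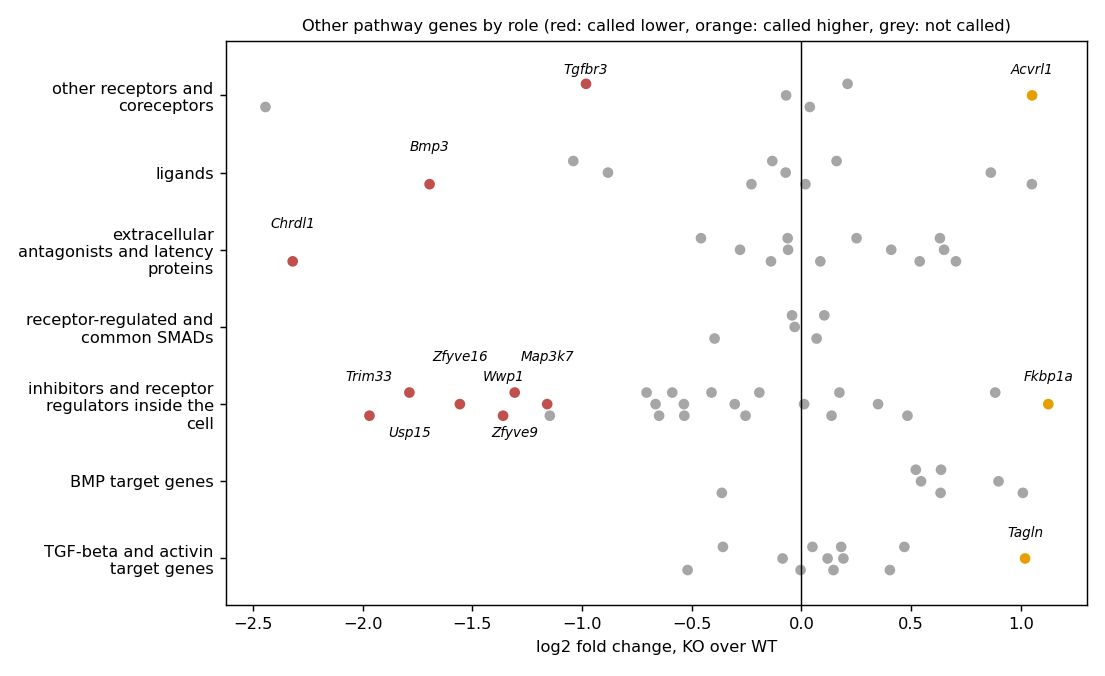
Log2 fold change of KO over WT for the 77 tested pathway genes outside the 10 receptors, by role; each point is a gene, red called lower, orange called higher, grey neither. The group of inhibitors and receptor regulators inside the cell holds 24 of the 77 tested genes and 6 of the 9 called lower, and the SMADs lie between -0.40 and 0.10.

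Among the other receptors and coreceptors, 6 of 10 were tested, 1 was higher and 1 lower. Acvrl1, a BMP9 and BMP10 type I receptor typical of endothelial cells, had 35.7, 28.6 and 33.7 CPM in KO 1 to 3 and 16.7, 16.4 and 14.2 CPM in WT 1 to 3. The groups did not overlap, and it rose by 1.05 on the log2 scale (SE 0.23, edgeR adjusted p = 0.023). With offsets on the longest transcript Acvrl1 was at 0.98 (edgeR adjusted p = 0.062), and with total counts at 0.78 (edgeR adjusted p = 0.129). Beside it, of 10 endothelial markers edgeR called 1 lower and 0 higher, with 3 lower and 2 higher at an unadjusted p under 0.05. DESeq2 called 3 lower and 1 higher, and limma-voom 0 of either. The markers summed to 630.0 to 751.7 CPM in KO and 521.0 to 664.2 CPM in WT, so the sums overlapped and their part in the difference was not tested. Tgfbr3, the coreceptor betaglycan, had 20.3, 30.6 and 17.1 CPM in KO 1 to 3 and 49.1, 35.1 and 50.3 CPM in WT 1 to 3. It fell by 0.98 on the log2 scale (SE 0.28, edgeR adjusted p = 0.048), with no overlap between groups. The call was lost in limma-voom (adjusted p = 0.056) and with offsets on the longest transcript, where Tgfbr3 was at -0.48 (edgeR adjusted p = 0.213). The BMP coreceptor Rgmb was at 0.04 (edgeR adjusted p = 0.928). Hfe2, the coreceptor hemojuvelin, held 90 counts in WT 3 and 4 to 13 in the other libraries, and WT 3 is the library with the most muscle marker RNA.

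Of 33 ligand genes 10 were tested, and Bmp3, an atypical BMP that opposes others, was the 1 called. It averaged 0.443 ± 0.120 CPM in KO and 1.47 ± 0.21 CPM in WT (SD, n = 3 each; log2 fold change -1.70, SE 0.46, edgeR adjusted p = 0.043). The Bmp3 call was lost in DESeq2 and limma-voom (adjusted p = 0.070 and 0.057). With offsets on the longest transcript Bmp3 was at -0.97 (edgeR adjusted p = 0.189). Tgfb1 had 8.44 ± 2.83 CPM in KO and 4.07 ± 0.71 CPM in WT, a log2 fold change of 1.05 that did not pass (SE 0.33, edgeR adjusted p = 0.063). Its groups did not overlap. Tgfb1 passed in DESeq2 (adjusted p = 0.040) but not in limma-voom (adjusted p = 0.082). Bmp6 and Inhbb were at -0.23 and 0.02 (edgeR adjusted p = 0.682 and 0.975). Ligands known from brown fat were scarce: Bmp7 held 0, 0 and 0 counts in KO 1 to 3 and 3, 1 and 0 in WT 1 to 3, and Bmp8b 0, 0 and 1 in KO and 0 in each WT library. Bmp4 held 4, 7 and 2 counts in KO 1 to 3 and 5, 8 and 13 in WT 1 to 3. At this depth no difference in these ligands was detectable. Inhba, the activin A subunit, held 1, 0 and 6 counts in KO 1 to 3 and 5, 1 and 3 in WT 1 to 3. Mstn, the muscle hormone myostatin, held 0, 1 and 0 counts in KO 1 to 3 and 1, 1 and 28 in WT 1 to 3, so that nearly all lay in WT 3.

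Among 13 tested extracellular antagonists and latency proteins, Chrdl1, a secreted BMP antagonist, was the 1 called. It had 7.96, 7.05 and 2.25 CPM in KO 1 to 3 and 22.5, 19.4 and 44.9 CPM in WT 1 to 3. All KO libraries were below all WT libraries (log2 fold change -2.32, SE 0.46, edgeR adjusted p = 0.019), and Chrdl1 was at -1.80 with offsets on the longest transcript (edgeR adjusted p = 0.062). Twsg1, a BMP-binding protein, and Ltbp2 and Ltbp3, of the latent TGF-beta binding family, were at -0.46, 0.54 and -0.06, and none of them passed (edgeR adjusted p = 0.246, 0.144 and 0.922).

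Of the 5 tested SMADs that carry the signal, 0 were called by edgeR, DESeq2 or limma-voom, and 0 had an unadjusted p under 0.05. Smad5, which acts below BMP receptors, Smad4, the partner of all branches, and Smad2 were at -0.40, 0.07 and -0.03 on the log2 scale (edgeR adjusted p = 0.248, 0.858 and 0.942). Smad4 had 35.7, 42.2 and 38.7 CPM in KO 1 to 3 and 32.0, 34.0 and 45.3 CPM in WT 1 to 3, with overlapping groups.

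Among 24 tested inhibitors and receptor regulators inside the cell, 6 fell and 1 rose, beside 7.52% and 1.63% of all tested genes. Fkbp1a, the immunophilin FKBP12 that binds type I receptors and keeps them silent, had 357.4, 330.9 and 473.3 CPM in KO 1 to 3 and 145.2, 230.2 and 157.1 CPM in WT 1 to 3. It rose by 1.13 on the log2 scale (SE 0.26, edgeR adjusted p = 0.027; 0.72 and adjusted p = 0.079 with offsets on the longest transcript, 0.84 and adjusted p = 0.099 with total counts). The ubiquitin ligases Trim33 and Wwp1 fell by 1.97 and 1.36, the deubiquitinase Usp15 by 1.79, and the endosomal FYVE proteins Zfyve9 and Zfyve16 by 1.31 and 1.56. Map3k7, the kinase TAK1 of the SMAD-independent branch, fell by 1.16 (edgeR adjusted p = 0.017 to 0.040 over these 6 genes). Their longest transcripts run from 5773 to 11525 bases, and with offsets on the longest transcript they were between -1.01 and -0.40. Of all tested genes over 4500 and up to 6000 bases 13.8% were called lower. The share was 23.9% over 6000 and up to 9000 bases, and 25.5% over 9000 bases. Zfyve9 and Map3k7 missed the threshold in limma-voom (adjusted p = 0.064 and 0.051). The phosphatase Ppm1a and the ubiquitin ligase Xiap were at -0.19 and -0.67 (edgeR adjusted p = 0.546 and 0.213).

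Target genes of the pathway gave few calls. Of 7 tested BMP targets 0 passed in edgeR, with 2 at an unadjusted p under 0.05, 1 in DESeq2 and 0 in limma-voom. The 2 were Hey1 and Atoh8, at 0.90 and 1.01 on the log2 scale (edgeR adjusted p = 0.055 and 0.081). Hey1 was the 1 in DESeq2 (adjusted p = 0.028). With offsets on the longest transcript Hey1 and Atoh8 were at 0.64 and 0.61 (edgeR adjusted p = 0.134 and 0.323). KO and WT values did not overlap for 3 of the 7, and for 35.4% of all tested genes. The log2 fold change was above 0 for 6 of the 7, with a median of 0.63 (0.15 with offsets on the longest transcript). Of all 12068 tested genes, 6207 were above 0. The longest transcripts of the 7 had a median of 1969 bases. Tested genes over 1500 and up to 3000 bases had a median log2 fold change of 0.27. The inhibitors of DNA binding Id1, Id2 and Id3 were at 0.52, 0.55 and 0.64 (edgeR adjusted p = 0.224, 0.174 and 0.231). Id1 had 185.2, 91.2 and 107.4 CPM in KO 1 to 3 and 91.0, 97.5 and 79.0 CPM in WT 1 to 3, so KO 1 stood above all others and the groups overlapped. Of 12 tested TGF-beta and activin targets, Tagln was the 1 that rose (87.9 ± 27.4 CPM in KO and 43.4 ± 7.9 CPM in WT, SD, n = 3 each; log2 fold change 1.02, SE 0.27, edgeR adjusted p = 0.041). The call was lost in limma-voom (adjusted p = 0.054), with total counts (edgeR adjusted p = 0.201) and with offsets on the longest transcript, where Tagln was at 0.56 (edgeR adjusted p = 0.175). Tagln is also a smooth muscle marker. Of 9 mural cell markers edgeR called 2 higher, Tagln itself and Acta2, and 1 lower. On the log2 scale 4 were above 0 and 5 below. The markers summed to 509.6 to 979.6 CPM in KO and 878.0 to 1359 CPM in WT. Rgs5 was the largest part of each sum. It had 613.8, 496.9 and 246.3 CPM in KO 1 to 3 and 1145, 818.5 and 713.9 CPM in WT 1 to 3. The sums therefore do not give the direction of the other mural markers. The part of the mural markers in the Tagln difference was not tested. Col3a1, Junb and Cdkn1a were at 0.15, 0.40 and 0.47 (edgeR adjusted p = 0.703, 0.418 and 0.268).

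Among 6057 genes with a mean of at least 10 CPM, those whose log2 CPM followed Acvr1c most closely over the 6 libraries were Ell2, Ube3a and Cul3, with Pearson's r of 0.995, 0.994 and 0.993. Ell2, a transcription elongation factor, had 13.4, 14.3 and 12.1 CPM in KO 1 to 3 and 39.0, 27.0 and 45.7 CPM in WT 1 to 3, the same pattern of a tight KO group with WT 2 lowest in WT. Those closest to Bambi were Mgp, Aph1a and Fbln5, with r of 0.998, 0.993 and 0.993. Mgp, the matrix Gla protein, had 101.8, 59.0 and 94.6 CPM in KO 1 to 3 and 34.1, 40.1 and 32.6 CPM in WT 1 to 3. These 6 libraries share groups and a length trend, so the values describe likeness only.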

How the data were processed

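Each library is 1 file of raw counts, deposited by the authors as whole numbers of reads per Ensembl gene over 37620 identifiers, with no normalization. The submitters' processing notes name STAR 2.5.4b and mm9. For the counting program, its strand setting and the annotation release, the entry is "not given in the sources used here". Symbols, lengths and GC content came from GENCODE M21 (GRCm38) by identifier, matching 32897 identifiers; unmatched ones held 0.178% of counts. No libraries held identical values.

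In R 4.3.3, edgeR 4.0.16 was used with filterByExpr (minimum count 10, minimum total 15), TMM scaling and the robust quasi-likelihood F test in its newer form, two-sided, with Benjamini-Hochberg adjustment over 12068 genes and a threshold of 0.05. The SE is the size of the log2 fold change over the root of F. CPM were computed here from the deposited counts.

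The members, gene lists and alternatives were chosen with earlier results of these data known. Named pathway genes were those past the threshold, the 3 most abundant of each list and 8 chosen ligands. Hfe2, Hey1 and Atoh8 were named after their values were seen. Alternatives were RLE scaling, total counts, DESeq2 1.42.0 with its own filter, limma-voom (limma 3.58.1), other filters, leaving out single libraries, a block for replicate number, removal of mitochondrial genome genes, a threshold of 0.01, and offsets for length and GC (smooth terms of basis size 6 in mgcv 1.9.3 on log2 ratios with prior count 2). Code was tested on simulated data.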

Additional observations from a re-analysis of the deposited data

How the results depend on the processing

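Of the 9 tested receptors, Acvr1b, Acvr1c, Acvr2a, Bmpr2 and Tgfbr1 stayed negative and Bambi positive under each alternative run. With an adjusted p of 0.01, 0 receptors, 0 other pathway genes of either direction and 0 of all genes were lower, and 1 gene was higher. With offsets on the longest transcript 0 receptors, 0 pathway genes lower and 0 higher, and 0 genes lower and 1 higher passed; with the replicate block added to these offsets all these counts were 0. With offsets on the median transcript 1 receptor was lower and 1 higher, 1 pathway gene lower and 0 higher, and 143 genes lower and 82 higher. Total counts gave 1389 lower and 29 higher genes and 0 higher pathway genes, and shifted the all-gene median (log2) to -0.23, against 0.03. DESeq2 gave 1 receptor, 5 pathway genes and 493 genes higher; limma-voom gave 5 pathway genes lower and 113 genes higher; a filter of 1 CPM gave 1 receptor higher. Leaving out single libraries gave 0 to 3 receptors lower and 0 to 1 higher, 0 to 10 pathway genes lower and 0 to 4 higher, and 0 to 1383 genes lower and 0 to 688 higher; without WT 1 and without KO 3, 2251 and 2672 genes had an unadjusted p under 0.05 in edgeR.

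Signs reversed for Acvr1 with total counts (-0.17) and without KO 3 (single libraries left out: -0.25 to 0.36). For Bmpr1a they did so with offsets on the longest transcript, without and with the replicate block (0.13 and 0.12). For Tgfbr2 they did so with total counts (-0.27), no filter (-0.018), and without WT 2 (-0.13), KO 2 (-0.022) or KO 3 (-0.16; single libraries left out: -0.16 to 0.25). None of these values passed. The order per kilobase changed for 3 receptors in KO and 2 in WT with the longest transcript, and for 7 and 8 with the median transcript. The cause was not tested for any of these.

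Replicate numbers carried no shared origin in the labels, and deviations of same-numbered libraries correlated at 0.145, -0.534 and 0.032, so they share only a number. With the replicate block 223 genes were higher and 976 lower, and 3 receptors were lower. Low counts limit Acvr2b and most ligands. Bmpr2 is limited by its counts in KO 1 to 3 (28, 47 and 24) and by its spread over WT 1 to 3 (314, 56 and 246).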
